A study of Mus musculus with 8 samples.

Results

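The intermediate filament genes followed here were Nes, Vim, Gfap, Des, Synm, Ina, Nefl, Nefm, Nefh and Prph. They were taken by name and are 10 of the 31053 genes in the count matrices. All the cells came from 8-week-old male Nestin-GFP mice, which carry green fluorescent protein (GFP) under control of Nestin regulatory elements, so Control and TBI animals shared the transgene. Control mice had a sham craniotomy and TBI mice a controlled cortical impact over 1 hemisphere, a model of traumatic brain injury. At day 15 after surgery the dentate gyri of the operated side were dissociated, the preparations of a condition were pooled, and live GFP-positive cells were sorted and profiled with the 10x Genomics 3′ v3 kit. The labels list 4 samples in each condition, but pooling before the sort left 1 library per condition. The study's methods give other numbers of animals per pool, so the samples listed are not a count of animals. No difference between Control and TBI therefore has a replicate check, and no test was made. All intervals are exact 95% intervals that cover counting error only. Where nothing was counted, the limit given is instead that of 3 counts in the total.

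Intermediate filaments are rope-like polymers of the cytoplasm that give cells mechanical strength, and their genes are switched on and off as cells mature. Type III proteins (vimentin, GFAP, desmin and peripherin) can polymerise alone, whereas nestin and synemin build into filaments with a partner such as vimentin or desmin. Alpha-internexin (Ina) and the light, medium and heavy neurofilament chains (Nefl, Nefm, Nefh) form the filaments of neurons. In the adult dentate gyrus nestin is the classic marker of radial glia-like stem cells, GFAP of those cells and of astrocytes, and vimentin of immature neural cells, while endothelial and mural cells of vessels also make nestin, vimentin and, in contractile cells, desmin.

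After filtering, 3048 Control and 5033 TBI cells remained, with medians of 6933 and 5676 unique molecular identifiers (UMIs, each 1 captured transcript) per cell. They formed 41 clusters, 38 of which were given 1 of 16 cell type names from marker lists that hold no filament gene. The filament genes were also kept out of the clustering. Every marker on a type's list was seen in at least 10% of its cells, except in immature granule neuron-like cells, where 5 of 6 were. The named types hold 7990 cells and the 3 unnamed clusters 91. Only 3 barcodes occurred in both libraries. Levels are UMIs of a gene summed over the cells of a type, per 1000000 UMIs of all genes except Malat1 (CPM). Because the kit counts 1 tag per transcript end, CPM values of different genes were compared without dividing by gene length.

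Promoter sequence is shown for 3 genes that were high in vessel cells, the sort gene Nes, the most abundant member Vim and the muscle gene Des. Each run is the RefSeq window from 250 bases before to 50 after the transcription start on GRCm38.p6, 5′ to 3′, and all 3 genes lie on the plus strand (Nes chr3:87970843-87971142, Vim chr2:13574061-13574360, Des chr1:75360042-75360341). Capitals mark TATAAA, or GGGCGG on either strand, written CCGCCC where it lies on the minus strand.
Nes: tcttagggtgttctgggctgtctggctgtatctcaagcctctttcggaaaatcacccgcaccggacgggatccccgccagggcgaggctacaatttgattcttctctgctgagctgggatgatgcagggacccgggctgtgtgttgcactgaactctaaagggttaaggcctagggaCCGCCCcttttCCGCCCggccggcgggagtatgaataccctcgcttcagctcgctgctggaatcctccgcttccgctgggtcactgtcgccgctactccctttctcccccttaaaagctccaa
Vim: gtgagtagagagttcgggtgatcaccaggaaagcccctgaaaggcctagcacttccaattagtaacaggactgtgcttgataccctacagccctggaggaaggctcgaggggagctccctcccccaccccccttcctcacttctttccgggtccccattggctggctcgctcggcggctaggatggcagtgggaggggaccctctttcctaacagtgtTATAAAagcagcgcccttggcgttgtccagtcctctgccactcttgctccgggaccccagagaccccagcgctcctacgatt
Des: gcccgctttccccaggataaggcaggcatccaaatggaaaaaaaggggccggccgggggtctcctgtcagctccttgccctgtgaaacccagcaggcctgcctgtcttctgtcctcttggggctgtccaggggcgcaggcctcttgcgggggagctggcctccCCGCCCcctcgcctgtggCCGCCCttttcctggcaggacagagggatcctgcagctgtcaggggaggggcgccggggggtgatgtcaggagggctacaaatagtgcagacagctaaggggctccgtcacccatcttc
The Nes and Des windows each held 2 GGGCGG matches and no TATAAA, and the Vim window held 1 TATAAA and no GGGCGG. Among the 32851 promoter windows in the table, 35.7% held GGGCGG and 13.6% TATAAA on either strand. A CArG box, which 1.63% of windows held, was found in none of the 7 windows available for the members (Nes, Vim, Gfap, Des, Synm, Ina and Prph). These matches describe the letters of the windows and show nothing about binding, and the transgene's control elements are not part of them.

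The filament genes differed widely in abundance. Over all cells Vim gave 14159 UMIs, Nes 3411, Synm 2522, Gfap 2375, Ina 1658 and Des 1077. The remaining 4 were scarce, with 158 UMIs of Nefm, 45 of Nefl, 18 of Nefh and 13 of Prph. The make-up of filament transcripts differed between groups of cell types. Vim was the main filament transcript of progenitor, endothelial and smooth muscle cells, and made up 89.6% of the filament UMIs in mitotic NSC-like cells, 74.9% in RG-like cells, 73.1% in smooth muscle-like cells and 62.1% in endothelial-like cells. Vim also led in early neuroblast-like cells (70.3%) and stem-like astroglia (53.1%). Nes led in pericyte-like cells (46%), Gfap in astrocyte-like cells (72.3%), Synm in oligodendrocyte-like cells (70.6%) and Ina in immature granule neuron-like cells (82.9%).

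**Figure D1:**
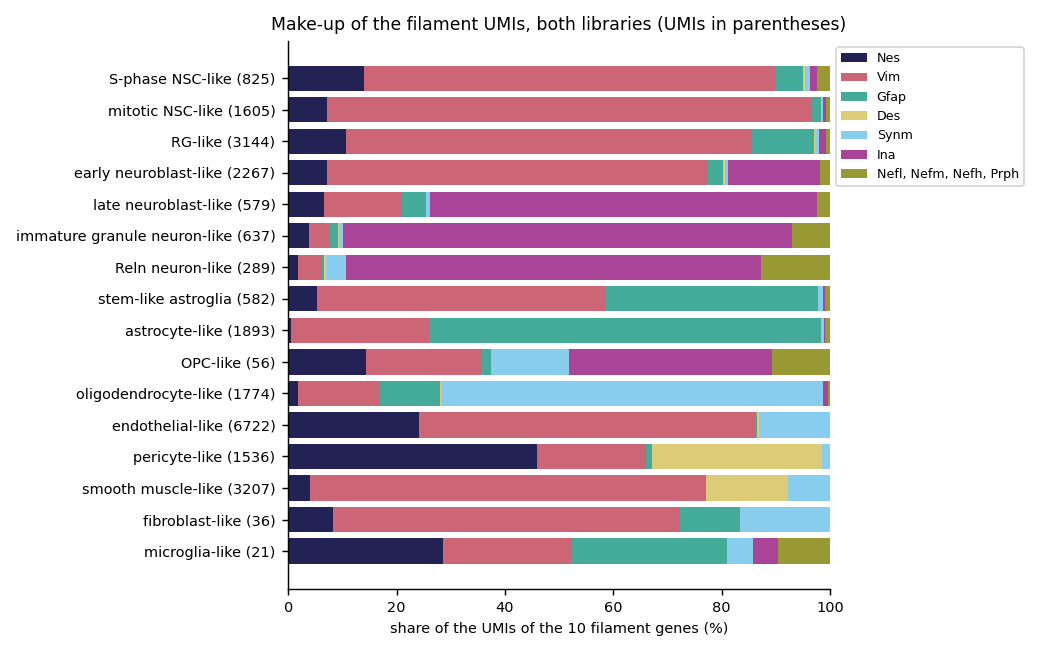
Stacked bars show, for each cell type, the share in % of each filament gene in the UMIs of the 10 genes, both libraries together, with the UMIs behind each bar in parentheses. Vim fills most of the progenitor, early neuroblast-like, endothelial and smooth muscle bars. Gfap fills 72.3% of the astrocyte-like bar, Synm 70.6% of the oligodendrocyte-like bar, and Ina most of the late neuroblast-like, immature granule neuron-like and Reln neuron-like bars.

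Nes (ENSMUSG00000004891, chr3:87971078-87980451 on GRCm38, plus strand) encodes nestin, the gene whose regulatory elements drove the GFP used for the sort. Its level was highest not in stem cells but in vessel cells. In endothelial-like cells it stood at 419.5 CPM in Control and 465.2 in TBI, in pericyte-like cells at 292.1 and 298.9, and in smooth muscle-like cells at 146.6 and 244.2. RG-like cells followed with 67.37 CPM in Control and 71.07 in TBI, a 6.23-fold (5.19 to 7.51) and 6.54-fold (5.6 to 7.68) lower level than in endothelial-like cells of the same library. In CPM the 4 highest types kept that order in both libraries, and their intervals over both libraries together did not overlap. Mitotic NSC-like cells (63.75 and 48.9 CPM), stem-like astroglia (48.93 and 32.11) and S-phase NSC-like cells (36.4 and 48.49) came next, with overlapping intervals. With both libraries together, the interval of mitotic NSC-like cells (57.25 CPM) also overlapped that of RG-like cells (69.4 CPM). Early neuroblast-like cells held 12.15 and 21.76 CPM. Astrocyte-like cells held 2.065 and 1.859 CPM and oligodendrocyte-like cells 0.8814 and 3.229, the 2 lowest types with both libraries together. The 30 fibroblast-like cells held 0 and 39.62 CPM, from 0 Control and 3 TBI UMIs. In their Control cells 3 counts make 73.89 CPM.

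Of the 3411 Nes UMIs, 72.1% lay in the 3 vessel types, which have 1859 cells. RG-like, S-phase and mitotic NSC-like cells held 16.6%. The sort used regulatory elements of this same gene, so these shares do not describe unsorted tissue. Per cell the gap was smaller than in CPM. Endothelial-like cells had 1.96 Nes UMIs a cell in Control and 1.61 in TBI, and RG-like cells 0.955 and 0.801, at median depths of 4525 and 3534 UMIs in endothelial-like and 14453 and 11252 in RG-like cells. Pericyte-like cells gave 193 Nes UMIs in 204 Control cells and 513 in 617 TBI cells, close to RG-like cells per cell. Smooth muscle-like cells gave 66 in 51 and 61 in 41, more per cell than pericyte-like cells. To compare how many cells showed the transcript, each cell was thinned to 2000 UMIs, which left out 351 Control and 738 TBI cells below that depth. A Nes UMI then remained in 48.5% of endothelial-like cells (45 to 52%), 33.7% of smooth muscle-like, 33.5% of pericyte-like, 11.1% of mitotic NSC-like and 10.3% of RG-like cells (7.43 to 13.7%). Without thinning the shares were 67.3%, 59.8%, 44.5%, 38.9% and 46.5%, so that pericyte-like cells then stood below RG-like cells. Astrocyte-like cells, taken as the background for Nes, had a Nes UMI in 0.214% of cells after thinning and 0.509% before, at median depths of 3304 and 2273 UMIs in Control and TBI. Oligodendrocyte-like cells had one in 0.384% and 1.14%.

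**Figure D2:**
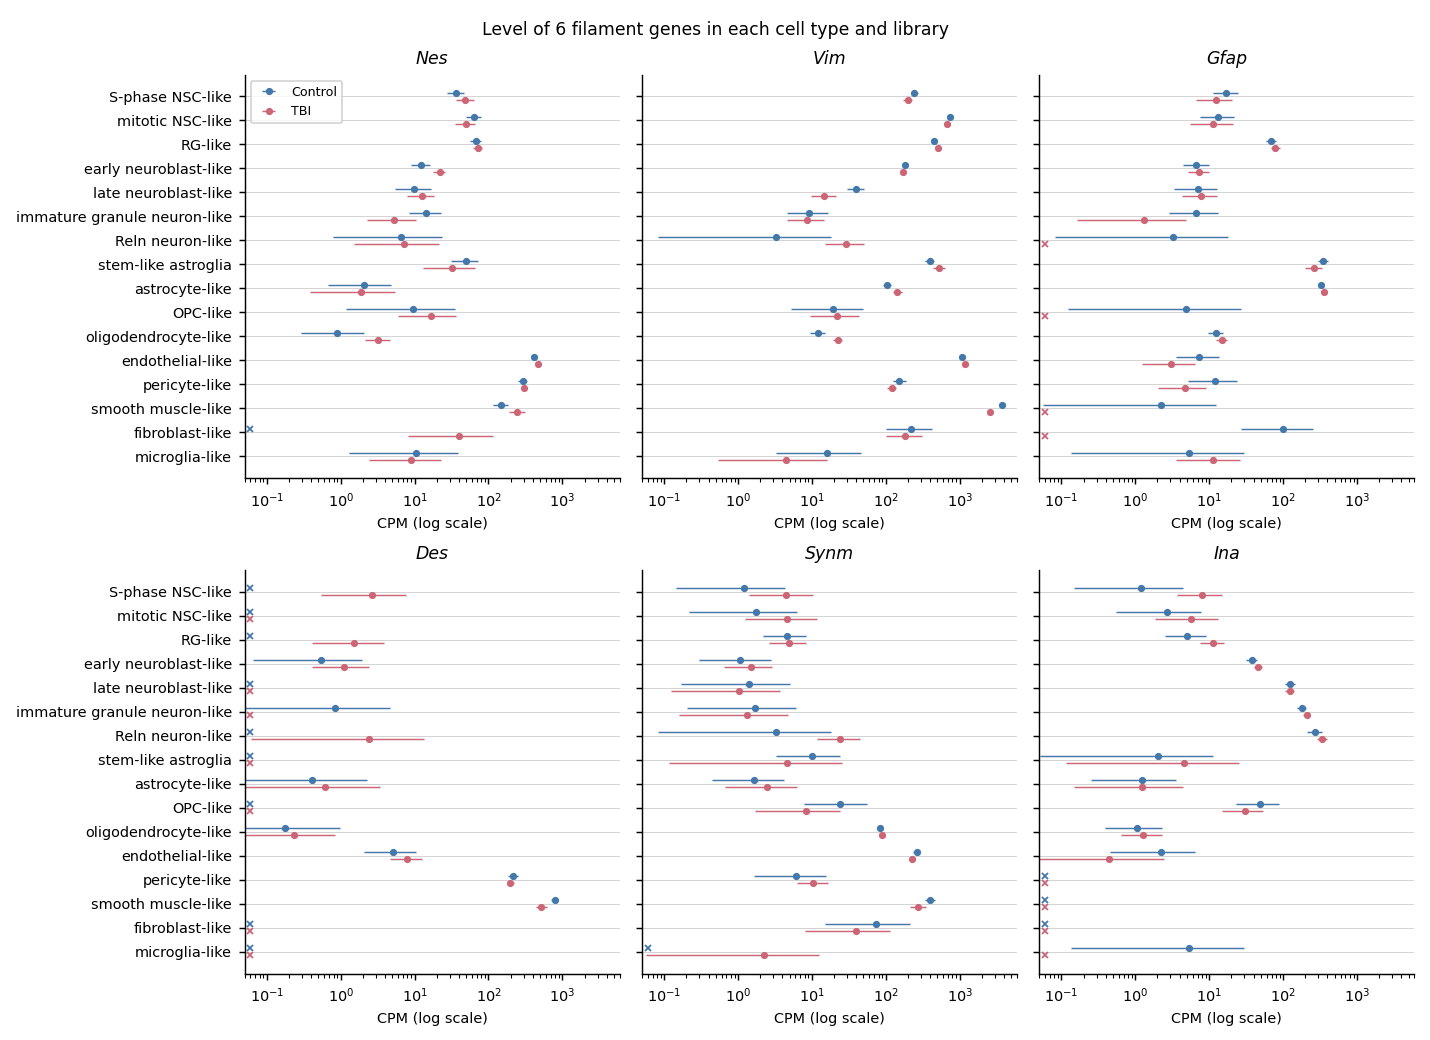
Points give the CPM of 6 filament genes in each cell type on a log axis, blue for the Control and red for the TBI library, with exact 95% Poisson intervals as lines and crosses at the left edge where no UMI was counted. Nes peaks in endothelial-like cells (419.5 and 465.2 CPM), Gfap in astroglia, Des in smooth muscle-like and pericyte-like cells, and Ina in neurons.

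Over the 16 types the genes whose levels most resembled those of Nes were Golim4 (Pearson r = 0.882 of log2(CPM + 1), mean of both libraries), Gm26802 (0.871) and Sav1 (0.858), chosen among 11930 genes that are neither members nor markers. Golim4 and Sav1 were likewise highest in endothelial-like and then in pericyte-like cells, and Gm26802 in the opposite order. For Vim the nearest genes were Id1 (r = 0.894), Pdlim5 (0.836) and Hspb8 (0.834). The 16 points share the same 2 libraries, so these correlations are descriptions.

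Vim (ENSMUSG00000026728, chr2:13573927-13582826, plus strand) encodes vimentin, the filament protein of mesenchymal and immature neural cells. Smooth muscle-like cells (51 in Control and 41 in TBI) had the highest level, 3768 CPM in Control and 2598 in TBI. Endothelial-like cells came next, at 1091 and 1186. Per cell, endothelial-like cells stood below RG-like and mitotic NSC-like cells, which held more UMIs of all genes per cell. Endothelial-like cells gave 1488 Vim UMIs in 292 Control cells and 2685 in 654 TBI cells. RG-like cells gave 990 in 155 and 1364 in 236, and mitotic NSC-like cells 848 in 73 and 590 in 89. Pericyte-like cells, the third vessel type, held only 152.9 and 121.2 CPM, so that endothelial-like cells exceeded them 7.14-fold (5.83 to 8.82) in Control and 9.79-fold (8.5 to 11.3) in TBI. The order of these vessel types thus differed between Nes and Vim.

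Among neural cells, with both libraries together, Vim was highest in mitotic NSC-like cells and lowest in immature granule neuron-like cells. In Control alone Reln neuron-like cells were lower still, at 3.279 CPM. RG-like cells held 450.6 CPM in Control and 512.9 in TBI, S-phase NSC-like cells 244.5 and 197.5, and mitotic NSC-like cells 750.8 and 671. The mitotic level was 3.07-fold (2.72 to 3.47) the S-phase level in Control and 3.4-fold (2.91 to 3.98) in TBI. The same ratio was 1.75 (1.23 to 2.51) and 1.01 (0.661 to 1.53) for Nes and 0.782 (0.388 to 1.51) and 0.921 (0.366 to 2.23) for Gfap, from 10 to 28 UMIs. Beyond the dividing cells Vim stood at 185 and 169 CPM in early neuroblast-like, 39.36 and 14.56 in late neuroblast-like and 9.246 and 8.656 in immature granule neuron-like cells. From early neuroblast-like to immature granule neuron-like cells the level was 20-fold lower in Control (11.1 to 40.3) and 19.5-fold lower in TBI (11.4 to 36.8).

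**Figure D3:**
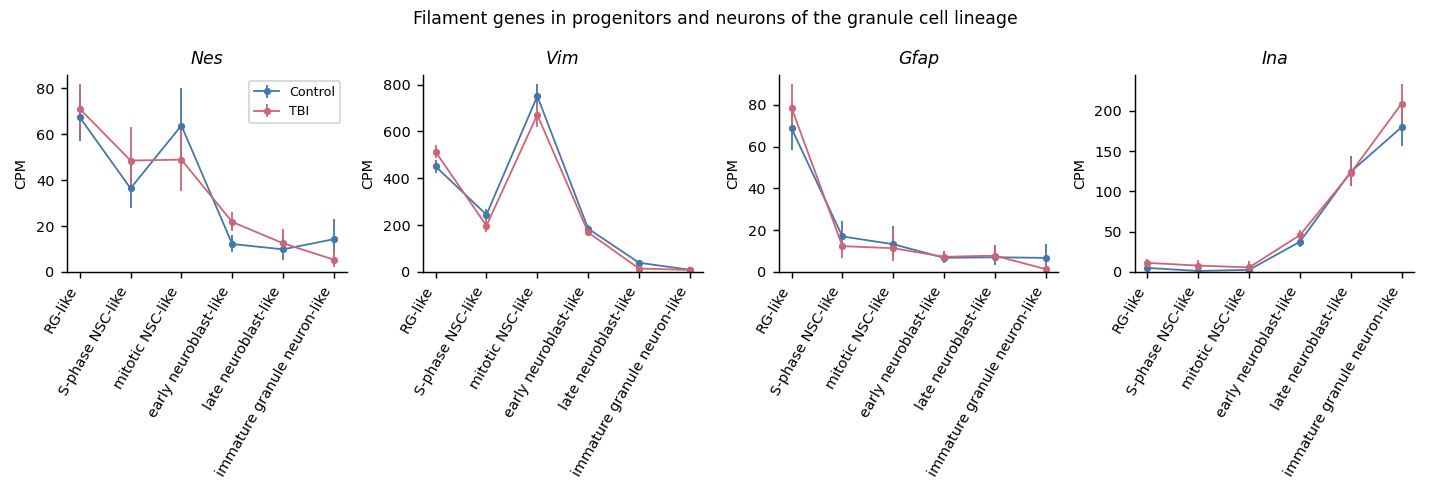
Each panel plots the CPM of 1 gene, on a linear axis of its own, in the types of the granule cell lineage, blue for Control and red for TBI, with exact 95% Poisson intervals. Lines only join the points of a library. The order of the types was set for display, and no trajectory was computed. Nes and Vim are low in neurons, Gfap is above 20 CPM only at the RG-like point, and Ina climbs to 179.9 and 209.1 CPM.

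Ina (ENSMUSG00000034336, chr19:47014698-47025327, plus strand) encodes alpha-internexin, an early filament protein of developing neurons, and ran opposite to Vim. It was at 5.007 CPM in Control and 11.28 in TBI in RG-like cells, 37.53 and 45.74 in early neuroblast-like, 124.4 and 123.2 in late neuroblast-like and 179.9 and 209.1 in immature granule neuron-like cells. The last of these levels was 4.79-fold (3.85 to 5.98) and 4.57-fold (3.86 to 5.42) that of early neuroblast-like cells. Reln neuron-like cells held the most, 268.9 CPM in 33 Control cells and 338.1 in 77 TBI cells. With both libraries together the only non-neuronal type above 10 CPM was OPC-like (oligodendrocyte precursor) cells, with 10 UMIs in 27 Control cells and 11 in 55 TBI cells. No Ina UMI was found in pericyte-like, smooth muscle-like or fibroblast-like cells. Thinned to 2000 UMIs, 30.5% of immature granule neuron-like cells had an Ina UMI, against 0 of 720 pericyte-like cells, which at 3 counts allows a share of cells with a UMI of up to 0.417%. Unthinned the shares were 54.9% and 0%.

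Gfap (ENSMUSG00000020932, chr11:102887336-102900912, minus strand) encodes the filament protein of astrocytes and radial glia. It was highest in astrocyte-like cells, 328.3 CPM in Control and 355.6 in TBI, and in stem-like astroglia, 350.7 and 261.5, with overlapping intervals. RG-like cells held 68.73 and 78.59 CPM, 4.78-fold (4.01 to 5.72) and 4.53-fold (3.86 to 5.33) below astrocyte-like cells. Per cell that gap was nearly absent. In RG-like cells 151 Gfap UMIs came from 155 Control cells and 209 from 236 TBI cells. In astrocyte-like cells 795 came from 695 Control cells and 574 from 681 TBI cells. Median depths were 14453 and 11252 UMIs in RG-like and 3304 and 2273 in astrocyte-like cells. In S-phase NSC-like cells Gfap was at 16.98 and 12.34 CPM, and in early neuroblast-like cells at 6.751 and 7.252. Stem-like astroglia shared Gfap with astrocyte-like cells but differed in the other glial filaments. Their Vim level was 3.8-fold (3.14 to 4.6) that of astrocyte-like cells in Control and 3.67-fold (2.91 to 4.61) in TBI, and their Nes level 23.7-fold (8.86 to 79.5) and 17.3-fold (3.94 to 104), the latter resting on 7 and 3 UMIs. Stem-like astroglia also had higher median mitochondrial shares, 14.8% in Control and 17.4% in TBI, against 9.56% and 9.12% in astrocyte-like cells.

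Within RG-like cells the clusters held unequal levels. A cluster led by DNA replication genes such as Mcm3 and Mcm5 held 72.9 CPM of Gfap, 320 of Vim and 89.2 of Nes, both libraries together. A cluster led by Neurog2, a factor of neuronal commitment, held 31.4 CPM of Gfap, 426 of Vim and 40.3 of Nes. Among thinned RG-like cells a Gfap UMI was seen in 18.5% of those with a Vim UMI and 8.11% of those without in Control, and in 18.8% and 4.67% in TBI. Unthinned these shares were 42.1% and 20% in Control and 41% and 19.2% in TBI.

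The 5 astrocyte-like clusters fell into 2 classes by Malat1, a nuclear transcript. In 2 clusters with 577 cells the median share of Malat1 in the UMIs of a cell was 0.0552% and 0.0655%, against 13.3 to 20% in the other 3. Gfap in these low-Malat1 cells was at 511.9 CPM in Control and 639.1 in TBI, against 258.3 and 223.5 in the others. Vim was at 169.1 and 296.2 CPM, against 79.27 and 72.68. Both genes were thus over 1.5-fold higher there in both libraries, as were 22.1% of all genes read in Control and 24.9% in TBI. The median gene stood at 0.712 of its level in the other clusters in Control and 0.748 in TBI. The low-Malat1 clusters also had fewer UMIs per cell (medians of 1625 and 1801, against 2628 to 5588). The part of depth in these Gfap and Vim levels was not tested.

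**Figure D4:**
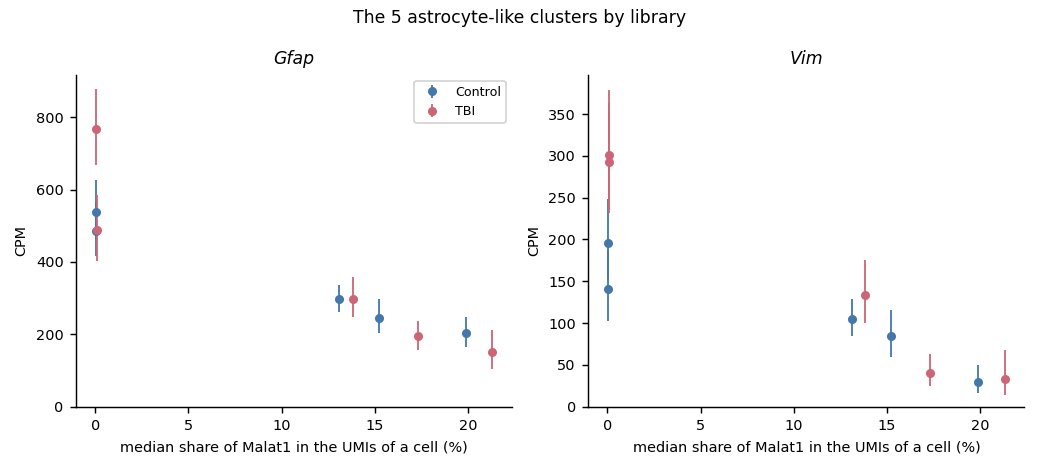
Each point is 1 of the 5 astrocyte-like clusters in 1 library (blue Control, red TBI), placed by the median share of Malat1 in the UMIs of its cells (%) and by the CPM of Gfap (left) or Vim (right), with exact 95% Poisson intervals. The 2 clusters near 0% Malat1 sit above the other 3 for both genes.

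Des (ENSMUSG00000026208, chr1:75360329-75368579, plus strand) encodes desmin, the filament protein of muscle and of mural cells. With both libraries together it exceeded 10 CPM in only 2 named types. Of its 1077 UMIs 92.1% lay in the 3 vessel types. Smooth muscle-like cells held 788.7 CPM in Control and 520.4 in TBI, and pericyte-like cells 214.9 and 198.1, so that the former were 3.67-fold (3.01 to 4.49) and 2.63-fold (2.13 to 3.22) higher. Endothelial-like cells, neighbours of both in the vessel wall, held 5.134 and 7.951 CPM, 41.9-fold (19.8 to 106) and 24.9-fold (15.5 to 42.5) less than pericyte-like cells. No UMI of Des was counted in 6 types, among them mitotic NSC-like cells and stem-like astroglia. The genes nearest to Des over the 16 types were Gm13861 (r = 0.991), Kcnmb1 (0.988), a subunit of the calcium-activated potassium channel of smooth muscle, and Aspn (0.977). For Gfap they were C030018K13Rik (0.929), Rida (0.919) and Acsbg1 (0.912).

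Synm (ENSMUSG00000030554, chr7:67730160-67759742, minus strand) encodes synemin, which links vimentin and desmin filaments to other parts of the cell. It was highest in smooth muscle-like cells (395.5 CPM in Control and 276.2 in TBI) and endothelial-like cells (263.3 and 229.3), and unlike Des it was nearly lacking in pericyte-like cells (6.054 and 10.49). The third highest type was oligodendrocyte-like cells, at 84.09 and 89.49 CPM, 50.9-fold (19.8 to 188) and 36.1-fold (14 to 133) above astrocyte-like cells. All 6 oligodendrocyte-like clusters had Synm, from 47.8 to 111 CPM with both libraries together. Thinned to 2000 UMIs, 14% of oligodendrocyte-like cells had a Synm UMI (12.3 to 15.8%) and 0.535% of astrocyte-like cells (0.174 to 1.24%). Unthinned the shares were 44.9% and 0.509%, at median depths of 10169 and 8271 UMIs in oligodendrocyte-like and 3304 and 2273 in astrocyte-like cells of Control and TBI. In OPC-like cells Synm was at 24.09 and 8.233 CPM, from 8 UMIs in all.

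The vessel types therefore carried different sets. Endothelial-like cells combined Vim, Nes and Synm, pericyte-like cells Nes, Des and Vim, and smooth muscle-like cells all 4. In pericyte-like cells Vim made up 20.1% of the filament UMIs, against 31.4% for Des. At 2000 UMIs a cell, 93.7% of endothelial-like, 60.6% of pericyte-like and 100% of smooth muscle-like cells had at least 1 filament UMI, against 63.8% of RG-like and 19.6% of oligodendrocyte-like cells. Unthinned the shares were 96.1%, 73.1%, 100%, 96.2% and 53.7%. Among endothelial-like cells Vim was seen in 83.6% of those with a Nes UMI and 78% of those without in Control, and in 84.2% and 81.2% in TBI. Unthinned these were 93.2% and 84.7% in Control and 89.7% and 81.9% in TBI. A pericyte-like cluster rich in immediate early genes (24654 CPM in Control and 30349 in TBI, against 362.4 and 946.3 in the largest pericyte-like cluster) had Nes at 454.3 and 360.4 CPM, against 228.9 and 234.3 in the largest. The smallest of the 3 clusters, with 19 Control and 73 TBI cells and 175 and 997.2 CPM of immediate early genes, had Nes at 408.3 and 271.1 CPM. The cluster rich in immediate early genes made up 44 of 204 Control and 258 of 617 TBI pericyte-like cells. The part of these genes in the Nes level was not tested.

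The neurofilament chains and peripherin, the filaments of mature and of peripheral neurons, were near the limit of detection. Nefm (ENSMUSG00000022054) was highest in Reln neuron-like cells, at 22.95 CPM in Control and 24.32 in TBI. Immature granule neuron-like cells held 19.33 and 6.658 CPM, from 23 and 10 UMIs, and in TBI 4 other types were above that level. In RG-like cells no Nefm UMI was counted in Control, which at 3 counts allows up to 1.37 CPM, whereas TBI had 24 UMIs in 16 cells (9.025 CPM). Early neuroblast-like cells gave 8 and 27 UMIs. S-phase NSC-like cells gave 4 and 16, of which 13 came from 1 TBI cell. None of these pairs was read for a ratio, since fewer than 50 UMIs were counted. Nefl (ENSMUSG00000022055) gave 18 UMIs in Control Reln neuron-like cells, 15 of them in 1 cell, and 0 in TBI. Nefh (ENSMUSG00000020396) had at most 7 UMIs in any type and library, 6 of which came from 1 Control astrocyte-like cell, and Prph (ENSMUSG00000023484) at most 2. Nefl lies inside the span of Nefm on the other strand (chr14:68083863-68089095 within chr14:68082590-68124846), and the 3′ kit keeps strand.

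Whether the filament transcripts differed between TBI and Control was asked in the 11 types with at least 50 cells in each library, for genes with at least 50 UMIs over both. Smooth muscle-like cells, with 41 in TBI, fell short of that number of cells, so their differences between libraries were not read. Of the 10 genes 6 passed the limit of 50 UMIs in at least 1 type, which gave 27 pairs of gene and type. Nefl, Nefm, Nefh and Prph passed in none. The median TBI to Control ratio was 1.07 and 3 pairs (11.1%) differed by more than 1.5-fold. The share of all genes read past that size was 5.31% in RG-like, 7.24% in S-phase NSC-like, 9.12% in mitotic NSC-like, 4.27% in early neuroblast-like, 6.13% in late neuroblast-like and 5.96% in immature granule neuron-like cells. It was 14.6% in stem-like astroglia and 5.8% in astrocyte-like, 3.95% in oligodendrocyte-like, 5.72% in endothelial-like and 8.97% in pericyte-like cells. With 1 to 4 members read in a type, no count of members can be set apart from these shares.

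Over whole types, all ratios in RG-like and dividing cells, endothelial-like and pericyte-like cells stayed within 1.5-fold. In RG-like cells the TBI to Control ratio was 1.05 for Nes (0.846 to 1.32), 1.14 for Vim (1.05 to 1.24) and 1.14 for Gfap (0.923 to 1.42). Among dividing cells Nes gave 1.33 (0.907 to 1.95) in S-phase and 0.767 (0.513 to 1.13) in mitotic NSC-like cells, and Vim 0.808 (0.683 to 0.954) and 0.894 (0.803 to 0.994). The S-phase Nes ratio ranged from 1.22 to 1.63 under other filters and clusterings. Endothelial-like cells gave 1.11 for Nes (1 to 1.23), 1.09 for Vim (1.02 to 1.16) and 0.871 for Synm (0.76 to 0.999). In pericyte-like cells the ratio was 1.02 for Nes (0.866 to 1.21), 0.922 for Des (0.756 to 1.13) and 0.793 for Vim (0.622 to 1.02), which was 0.618 with equal cluster weights in both libraries. In the pericyte-like cluster rich in immediate early genes Vim was at 343.6 CPM in Control and 134.3 in TBI, a ratio of 0.391 (0.283 to 0.545), and in the other pericyte-like clusters it was 1.26 (0.868 to 1.86). In oligodendrocyte-like cells Synm gave 1.06 (0.948 to 1.2) and Gfap 1.21 (0.894 to 1.64), and in early neuroblast-like cells Vim gave 0.914 (0.827 to 1.01) and Gfap 1.07 (0.634 to 1.85). Ina gave 1.22 (0.986 to 1.51) in early neuroblast-like, 0.99 (0.812 to 1.21) in late neuroblast-like and 1.16 (0.974 to 1.39) in immature granule neuron-like cells. The last ratio was 0.622 where the libraries were clustered without integration and 0.893 as a mean of the CPM of each cell.

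The 3 pairs past 1.5-fold were Nes in early neuroblast-like cells and Vim in late neuroblast-like and oligodendrocyte-like cells. Nes in early neuroblast-like cells rested on 45 Control and 117 TBI UMIs and was 1.79-fold higher in TBI (1.26 to 2.58). In 1 of the 3 clusters of that type, led by Eomes, Nes was at 12.84 CPM in Control and 38.48 in TBI, and 12.5% of its TBI cells and none of its Control cells were called doublets. Without that cluster the ratio was 1.39 (0.92 to 2.13). Vim in late neuroblast-like cells, from 56 and 28 UMIs, had a ratio of 0.37 (0.226 to 0.592). Without the larger of its 2 clusters the ratio was 0.945 (0.217 to 4.1), from 5 UMIs in each library, and without the smaller it was 0.326 (0.19 to 0.543). Where the libraries were clustered without integration it was 0.7. Vim in oligodendrocyte-like cells, from 68 and 196 UMIs, had a ratio of 1.89 (1.42 to 2.52). Its level there was low, 11.99 CPM in Control and 22.6 in TBI, rank 13 of the 16 types with both libraries together. A cluster with 39 Control and 236 TBI cells and 17.9% and 11% called doublets held 79.09 and 49.43 CPM. That cluster also had more immediate early gene UMIs, 689.2 and 652.3 CPM against 136.2 to 350.3 in the other 5. With equal cluster weights in both libraries the ratio was 1.16, and without that cluster it was 2.11 (1.46 to 3.11). With called doublets left out the ratios were 1.58 for Nes in early neuroblast-like, 0.411 for Vim in late neuroblast-like and 1.94 for Vim in oligodendrocyte-like cells, and 3 of the 27 pairs were past 1.5-fold.

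**Figure D5:**
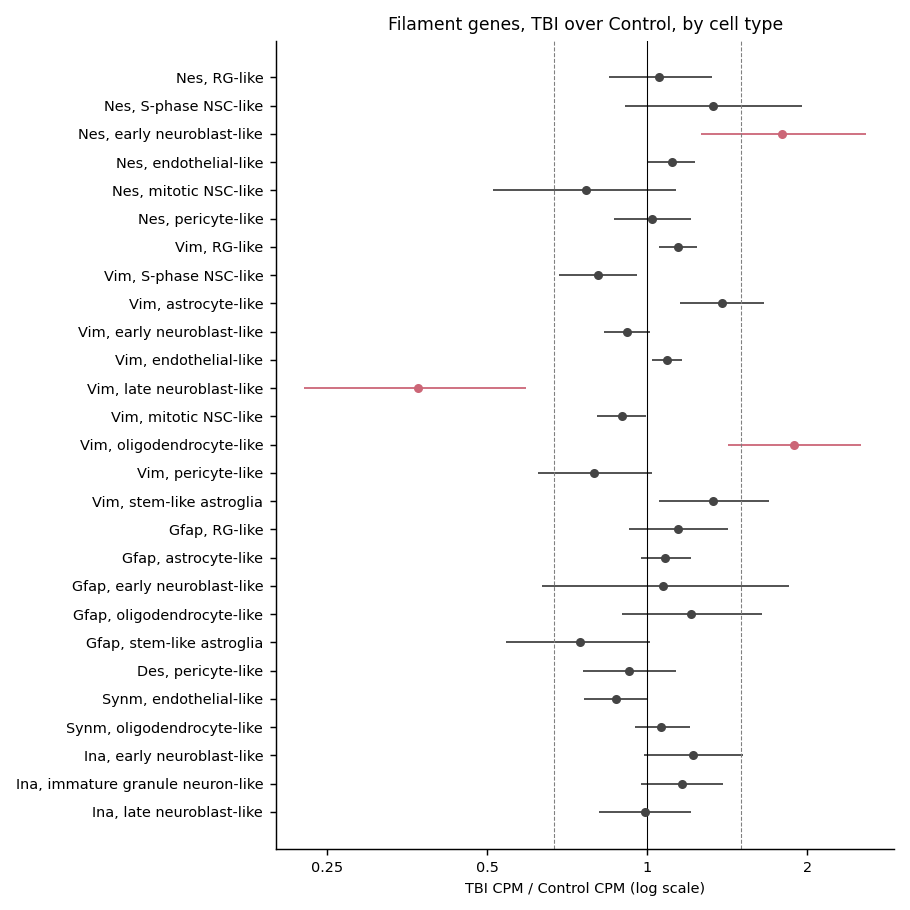
Each of the 27 rows gives the TBI to Control ratio of CPM for 1 gene in 1 cell type on a log axis, with its exact 95% interval for counting error; dashed lines mark 1.5-fold either way. Red points are the 3 ratios past 1.5-fold: 1.79, 0.37 and 1.89.

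In astroglia the direction hung on which cells were counted. Over all astrocyte-like cells Gfap had a ratio of 1.08 (0.971 to 1.21) and Vim of 1.38 (1.15 to 1.66). In the low-Malat1 clusters the ratios were 1.25 (1.07 to 1.46) and 1.75 (1.36 to 2.25), and in the others 0.865 (0.738 to 1.01) and 0.917 (0.688 to 1.22). These classes were set after seeing the data, and the share of all genes past 1.5-fold was not computed within them. Low-Malat1 cells were 257 of 695 astrocyte-like cells in Control and 320 of 681 in TBI. In stem-like astroglia Gfap had a ratio of 0.746 (0.543 to 1.01) and Vim of 1.33 (1.05 to 1.69). That type held 120 Control and 67 TBI cells. Its median mitochondrial shares, 14.8% and 17.4% of UMIs, were the highest of the named types.

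A list of 19 genes related to these filaments held lamins, keratins, plakin linkers such as Plec, Dst and Macf1, and chaperones such as Cryab. Of these 14 were read in at least 1 type, which gave 108 pairs with a median ratio of 1.04, and 6 pairs (5.56%) passed 1.5-fold. The shares of all genes read past that size ran from 3.95% in oligodendrocyte-like cells to 14.6% in stem-like astroglia. The list count cannot be set apart from these shares. Above 1.5-fold were Iffo2 in RG-like (1.81, 1.06 to 3.19) and endothelial-like cells (1.61, 0.957 to 2.79), Plec, a linker of filaments to junctions, in early neuroblast-like cells (1.97, 1.28 to 3.12), Mtm1 in endothelial-like cells (1.73, 0.962 to 3.28), and Cryab, a small heat shock protein that binds desmin and GFAP filaments, in RG-like cells (5.94, 3.5 to 10.7). Of the 115 TBI UMIs of Cryab in RG-like cells 66 came from 1 called doublet, and without it the ratio was 2.55 (1.43 to 4.81). Without the RG-like cluster led by DNA replication genes, which held that doublet, the ratio was 1.7 (0.845 to 3.58). Over the 3 RG-like clusters left out in turn it ran from 1.7 to 21.6. The 21.6 rested on 4 Control and 97 TBI UMIs, and 66 of the latter came from that doublet. The pair past 1.5-fold in the other direction was Cryab in late neuroblast-like cells (0.507, 0.289 to 0.877), where 18 of the 35 Control UMIs came from 1 cell. Oligodendrocyte-like cells, in which Cryab was most abundant, held 3941 CPM in Control and 3899 in TBI. The lamin Lmnb1 was at 874.7 and 805.2 CPM in mitotic and 783.1 and 819.9 in S-phase NSC-like cells, where Vim differed over 3-fold.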

How the data were processed

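Nestin-GFP-sorted dentate gyrus cells were measured by single-cell RNA sequencing. The authors deposited UMI counts per gene and barcode, 1 matrix per pooled condition, which Cell Ranger 3.0.2 made on GRCm38/mm10 per the labels. Each matrix was tied to Control or TBI by barcodes that the study lists: 356 of 356 Control barcodes and 320 of 320 TBI barcodes were found in it, and 0 in the other. GFP transcripts were not analysed here. Libraries held 24723113 and 31543330 UMIs over 3086 and 5081 barcodes.

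Cells were kept with at least 200 genes and no more than 3 median absolute deviations, on a log scale, between their UMI total and the median of their library. No mitochondrial limit was set. Doublets called by Scrublet in scanpy 1.11.5 (1.31% and 2.19% of cells) were left in. Counts were integrated and clustered with Seurat 5.3.0 (20 canonical correlation dimensions, 20 principal components, 2000 variable genes, resolution 3.0), without the 10 members or Malat1. Each cluster took the type whose markers had the highest mean scaled level. It was left unnamed with fewer than 3 of those markers detected, or where markers of another type outnumbered them among its leading genes. Low UMIs with none of those markers leading also left a cluster unnamed. Levels carry exact Poisson intervals, ratios conditional binomial ones and shares Clopper-Pearson ones, from scipy 1.17.1. The ratio code was tested on simulated data.

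Named are all 10 members, list genes past 1.5-fold, and for Nes, Vim, Gfap and Des the 3 genes with the most similar log2(CPM + 1) levels among those with at least 200 UMIs. Of the list, Dst, Macf1 and Lmnb1 were also named, though none of them passed 1.5-fold. Members and lists were chosen with earlier results of these data known. Alternatives changed the cell filters, clustering, scaling, thinning and limits. Values of 1 RG-like and 1 unnamed cluster are not reported here.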

Additional observations from a re-analysis of the deposited data

How the results depend on the processing

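Depth and the single library per condition limit these data: no ratio has a replicate check, genes under 50 UMIs in a type were not read, and intervals leave out the spread between animals. No paired analysis was possible because the dissociated tissue of each condition went into 1 pool ahead of the sort, and the replicate numbers in the labels match no column of counts. Of 260 TBI to Control ratios recomputed over all alternatives, 250 stayed within the counting interval of the main value. The alternatives reuse the same libraries, and that interval is wide where UMIs are few, so this count is no independent check. None of the ratios past 1.5-fold turned direction. Without integration Vim in late neuroblast-like cells had a ratio of 0.7 (0.37 in the main analysis) and Ina in immature granule neuron-like cells one of 0.622 (1.16). As a mean of the CPM of each cell, the latter was 0.893 and Gfap in astrocyte-like cells 1.21 (1.08). With equal cluster weights in both libraries Vim in oligodendrocyte-like cells was 1.16 (1.89). Clusters low in Malat1, rich in doublets or rich in immediate early genes were left out as alternatives chosen after seeing the data. Without those low in Malat1, Vim and Gfap in astrocyte-like cells were 0.917 (1.38) and 0.865 (1.08), and Gfap in astrocyte-like over RG-like cells was 3.3 (4.58). Between cell types, Vim in mitotic over S-phase NSC-like cells, 3.18 with both libraries summed, was 2.42 with a limit of 2 median absolute deviations, 2.53 without cells over 10% mitochondrial UMIs and 2.79 at resolution 1.0. Ina in immature granule neuron-like over early neuroblast-like cells, 4.63, was 5.54 and 5.81 with those 2 cell filters, 5.38 with the members among the clustering genes and 6.26 without integration. The number of member pairs past 1.5-fold, 3 of 27, was 5 of 27 with a limit of 2 median absolute deviations, 6 of 32 without integration, 8 of 31 at resolution 1.0, 13 of 43 with at least 20 UMIs, 1 of 21 with at least 200 UMIs, and 1 of 27 at 2-fold. The cause of these shifts was not tested. The share of all genes past the fold was not computed under these alternatives. None of these counts can therefore be read as a result about the filament genes. With at least 20 UMIs, a pair without any Control UMI also counted as past, as Nefm in RG-like cells did (0 and 24 UMIs). Of 503 recomputed levels 104 left their main interval, 40 of them where mitochondrial, ribosomal protein and hemoglobin genes were taken out of the total. Shares of cells with a UMI moved with depth, in 100 of 112 values.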

Other observations

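Of the 3 unnamed clusters 2 are described here. A cluster of 35 cells led by Ephx3, Wtip and Inpp4b, with Notch3 and Rgs5 among its leading genes, had 322 CPM of Nes and 629 of Vim with both libraries together. A cluster of 41 cells led by mitochondrial transcripts, which made up a median of 68.6% of the UMIs of a cell, had no Nes UMI.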
